A study of Mus musculus with 32 samples.

Results

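The genes that make and break down glycogen were followed in brown adipose tissue of mice that lack the glucose-responsive transcription factor ChREBP, or its β isoform alone. The set held 9 genes, chosen by name: Gyg, Ugp2, Gys1, Gys2, Gbe1, Pygl, Pygb, Pygm and Ppp1r3c. Every array probe that carries one of these names and is in the deposited value table was taken, which gave 14 of 37304 probes and 9 of 24521 genes. One more Pygm probe did not pass the filter on dim spots, and all 14 others were well above background on each of the 32 arrays.

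The arrays came in 4 groups of 8 mice: total ChREBP KO, which are Mlxipl-null and so lack both isoforms, WT mice of that line (total-line WT), ChREBPβ KO, and their WT littermates (ChREBPβ-line WT). In ChREBPβ KO the exon specific to the β transcript was excised with CRISPR/Cas9 in the embryo, and both deletions are present in every tissue, so that effects reaching the fat from other organs are included. The study's text places these arrays in C57BL6/J males, and an age is not given in the sources used here. Mice of all 4 groups went 24 hours without food and then had chow and 20% glucose water for 18 hours, so there was no fasted comparison. As a check of the labels, the brightest of 3 probes for Mlxipl, the gene of ChREBP, had a log2 fold change of -2.48 in the total line (limma adjusted p 2.06e-24) and -1.5 in the ChREBPβ line (limma adjusted p 7.47e-17). The other probes gave -0.77 and 0.14 in the total line and -1.14 and -0.08 in the ChREBPβ line, and which of them lie inside the deleted exons was not tested. The study reported that ChREBPα, the other isoform, was raised as mRNA and protein in brown fat of ChREBPβ-deficient males. ChREBPβ KO is thus not a loss of 1 isoform with the other unchanged.

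Glycogen is a branched glucose polymer that serves as a short-term sugar store, and brown fat lays it down on refeeding. Glycogenin, encoded by Gyg, primes a new particle. UDP-glucose pyrophosphorylase (Ugp2) makes the activated sugar, glycogen synthase (Gys1 in muscle and most tissues, Gys2 the form named for liver) lengthens the chains, and the branching enzyme Gbe1 adds the side chains. Glycogen phosphorylase, with a liver (Pygl), a brain (Pygb) and a muscle form (Pygm), releases glucose 1-phosphate again, and Ppp1r3c is a scaffold that brings protein phosphatase 1 to the particle, where it activates the synthase and switches off the phosphorylase.

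Values are log2 of the median spot intensity after quantile normalization, and a probe was called at a limma adjusted p under 0.05 over all probes. In total ChREBP KO against WT, 9 of the 14 probes were called, where 43.2% of all probes were called in this comparison. They were 4 higher and 5 lower, against 22.7% and 20.5% of all probes. Counted by the brightest probe of each gene, 6 of 9 genes were called against 44.1% of all genes: Pygl, Gbe1 and Ugp2 were lower (21.1% of all genes), and Pygb, Gys2 and Ppp1r3c were higher (23% of all genes). The KO and WT arrays did not overlap at all for 7 of the 14 probes, against 15.6% of all probes. The median absolute log2 fold change was 0.32 over the 9 genes and 0.17 over all genes. In ChREBPβ KO against WT, 1 of 14 probes was called, that of Pygl, which was lower, where 2.55% of all probes were called, 1.3% higher and 1.26% lower. An unadjusted p under 0.05 was reached by 4 of the 14 probes, which stand for 3 genes, as both Pygb probes are among them. The share of all probes at that level is not given here, so this count has no background to be read against. Of the 14 probes, 0 had groups that did not overlap, against 0.365% of all probes.

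**Figure D1:**
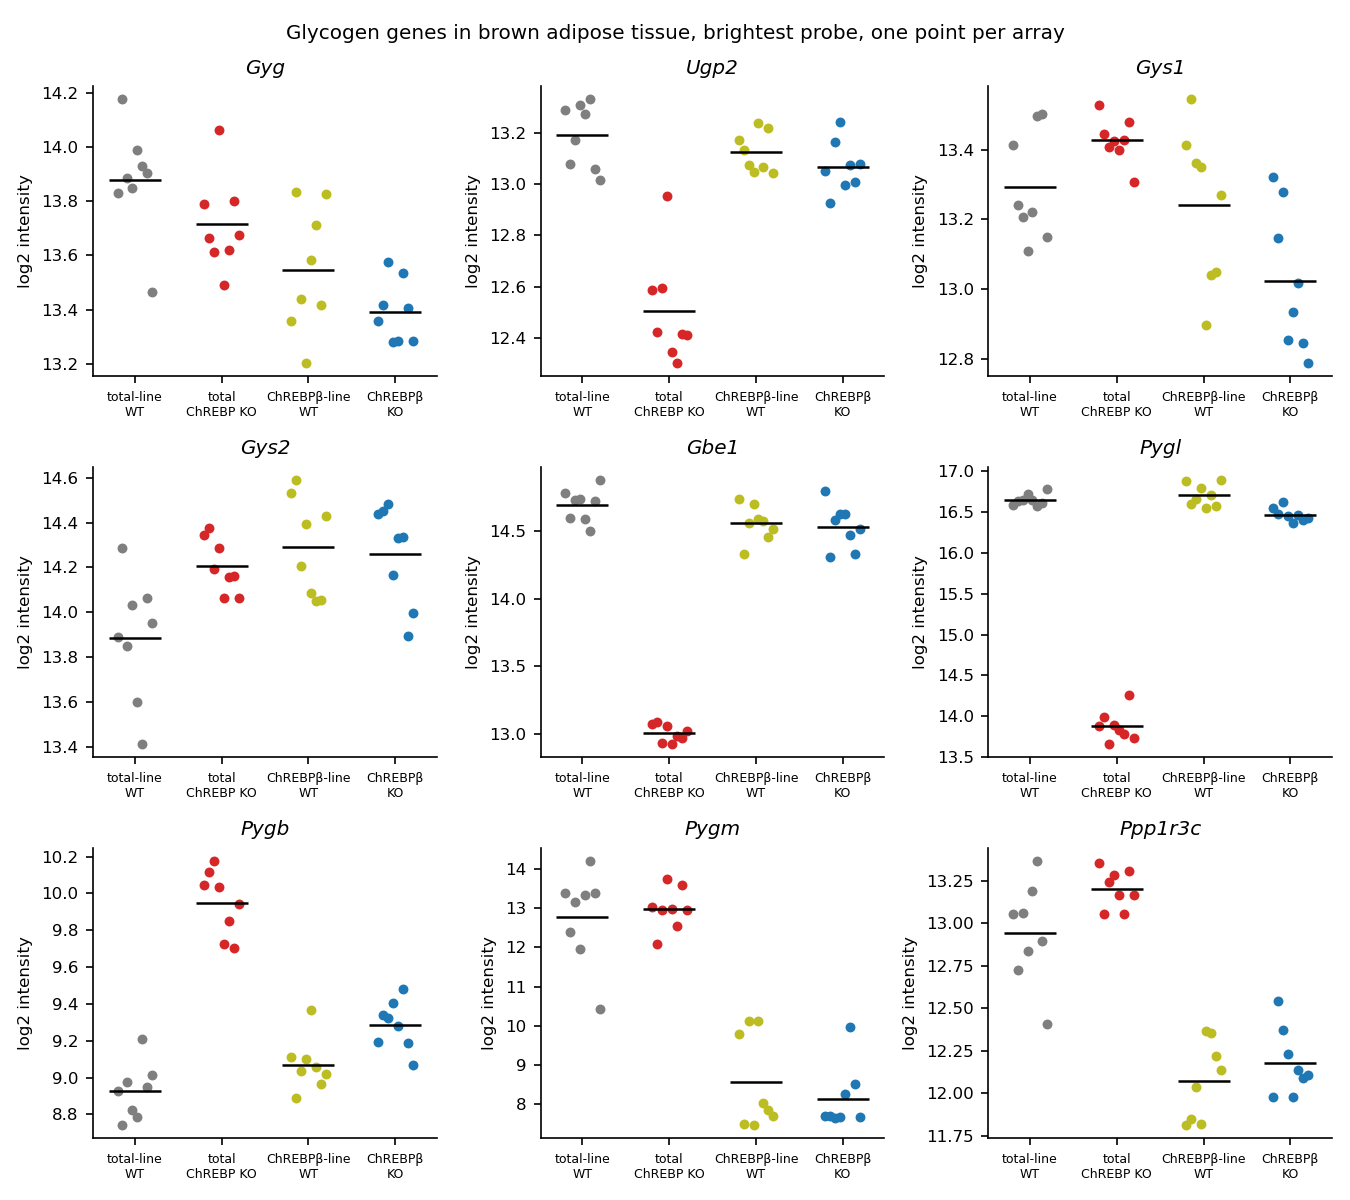
The 9 genes by group, 1 point for each array and a line at the mean of 8 arrays, as log2 intensity of the brightest probe; axes differ between panels and do not start at 0. The total ChREBP KO arrays lie far below all others for Pygl (13.66 to 14.26) and Gbe1 (12.93 to 13.09) and above all others for Pygb (9.71 to 10.18), while Pygm separates the lines rather than the genotypes.

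Pygl, the phosphorylase that carries glycogen breakdown in liver, showed the largest change of the 9 genes in total ChREBP KO. Its probe, at chr12:71291855-71291914 on the minus strand (mm9), read 16.58, 16.64 and 16.78 as the lowest, median and highest of the 8 total-line WT arrays, and 13.66, 13.85 and 14.26 in total ChREBP KO. The lowest WT array was thus above the highest KO array by over 2 log2 units. This was a log2 fold change of -2.77 ± 0.06 (SE), a 6.83-fold lower signal (limma adjusted p 5.66e-26), with 8 of 8 KO arrays below the WT mean. Within the 4 wash batches, each of which held arrays of every group, the difference lay between -2.84 and -2.61, and on the 1 slide with arrays of both groups it was -2.65. As in any bulk sample, fewer cells of a type and less RNA per cell cannot be told apart here.

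In the ChREBPβ line the same probe read 16.55, 16.68 and 16.89 in WT and 16.36, 16.45 and 16.62 in ChREBPβ KO. All 8 KO arrays lay below the WT mean, and 1 of them was inside the WT range. KO minus WT came to -0.24 ± 0.06 (SE), a 1.18-fold lower signal (limma adjusted p 0.0363). This call was fragile: it was lost when any 1 of 11 of the line's 16 arrays was left out and in 9 of 17 other settings, with slide as a fixed block at -0.10 (limma adjusted p 0.713), and the adjusted p ranged from 0.0131 to 0.713. Within wash batches the difference lay between -0.25 and -0.10, negative in 4 of 4. The ChREBPβ KO effect minus the total ChREBP KO effect was 2.53 ± 0.09 (SE; limma adjusted p 3.87e-20).

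The other phosphorylases did not move with Pygl. Pygb, the brain form, rose in total ChREBP KO on both of its probes. The brighter, at chr2:150656541-150656600 on the plus strand (mm9), read 8.74, 8.94 and 9.21 in total-line WT and 9.71, 9.99 and 10.18 in total ChREBP KO, without overlap. Its log2 fold change was 1.02 ± 0.07 (SE), a 2.03-fold higher signal (limma adjusted p 7.1e-13), and the other probe gave 0.93 (limma adjusted p 9.75e-11). The difference was positive in each wash batch, from 0.76 to 1.21 on the brighter probe. In the ChREBPβ line the brighter probe read 8.89, 9.04 and 9.37 in WT and 9.07, 9.30 and 9.48 in KO. All 8 KO arrays were above the WT mean, yet 6 lay inside the WT range, and the change of 0.22 was not called (limma adjusted p 0.129); without ChREBPβ-line WT replicate 5, the highest WT array, it was (limma adjusted p 0.0349). The KO effects differed for both probes, at -0.80 and -0.74.

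Pygm, the muscle form, was not called in either KO. Its brighter probe, at chr19:6398389-6398448 on the plus strand (mm9), read 10.42, 13.24 and 14.20 in total-line WT and 12.09, 12.97 and 13.75 in total ChREBP KO, so every KO array lay within the WT range. The log2 fold change was 0.21, with a 95% confidence interval of -0.72 to 1.14 (limma adjusted p 0.749). Total-line WT replicate 8, at 10.42, set this sign: without it the 2 probes gave -0.13 and -0.20, where they had given 0.21 and 0.15. In ChREBPβ KO it was -0.43 (-1.37 to 0.50; limma adjusted p 0.779). These intervals were several times wider than those of the other genes. Taken per array, Pygb minus Pygl shifted by 3.79 log2 units in total ChREBP KO, from between -7.90 and -7.37 in WT to between -4.55 and -3.48; as probes differ in brightness, only the shift can be read and not the distance between the forms.

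On the synthesis side, the branching enzyme Gbe1 fell in total ChREBP KO on all 3 of its probes. The brightest, at chr16:70569840-70569899 on the plus strand (mm9), read 14.50, 14.73 and 14.88 in total-line WT and 12.93, 13.01 and 13.09 in total ChREBP KO, with a wide gap between the groups. On the log2 scale the change was -1.68 ± 0.06 (SE), a 3.21-fold lower signal (limma adjusted p 3.73e-20). The next probe gave -1.68 (limma adjusted p 2.59e-16) and the dimmest, in another part of the gene at chr16:70361835-70361894, gave -0.89 (limma adjusted p 2.15e-07), so the probes shared the direction but not the size. In ChREBPβ KO the 3 changes were -0.03, -0.01 and -0.06, none of them called. For the brightest probe the 95% confidence interval was -0.16 to 0.10, and the KO effects differed by 1.66 (limma adjusted p 2.41e-15).

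Ugp2, which supplies UDP-glucose, fell less. Its probe, at chr11:21221975-21222034 on the minus strand (mm9), read 13.01, 13.22 and 13.33 in total-line WT and 12.30, 12.42 and 12.95 in total ChREBP KO. The highest KO array, replicate 4, stood apart from the other KO arrays, of which the next was at 12.59, and still lay below the lowest WT array. KO minus WT was -0.69 ± 0.07 (SE), a 1.61-fold lower signal (limma adjusted p 1.01e-09), with wash batches between -0.83 and -0.58. In ChREBPβ KO it was -0.06 (95% confidence interval -0.20 to 0.08; limma adjusted p 0.82), and the effects differed by 0.63 (limma adjusted p 1.1e-05).

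**Figure D2:**
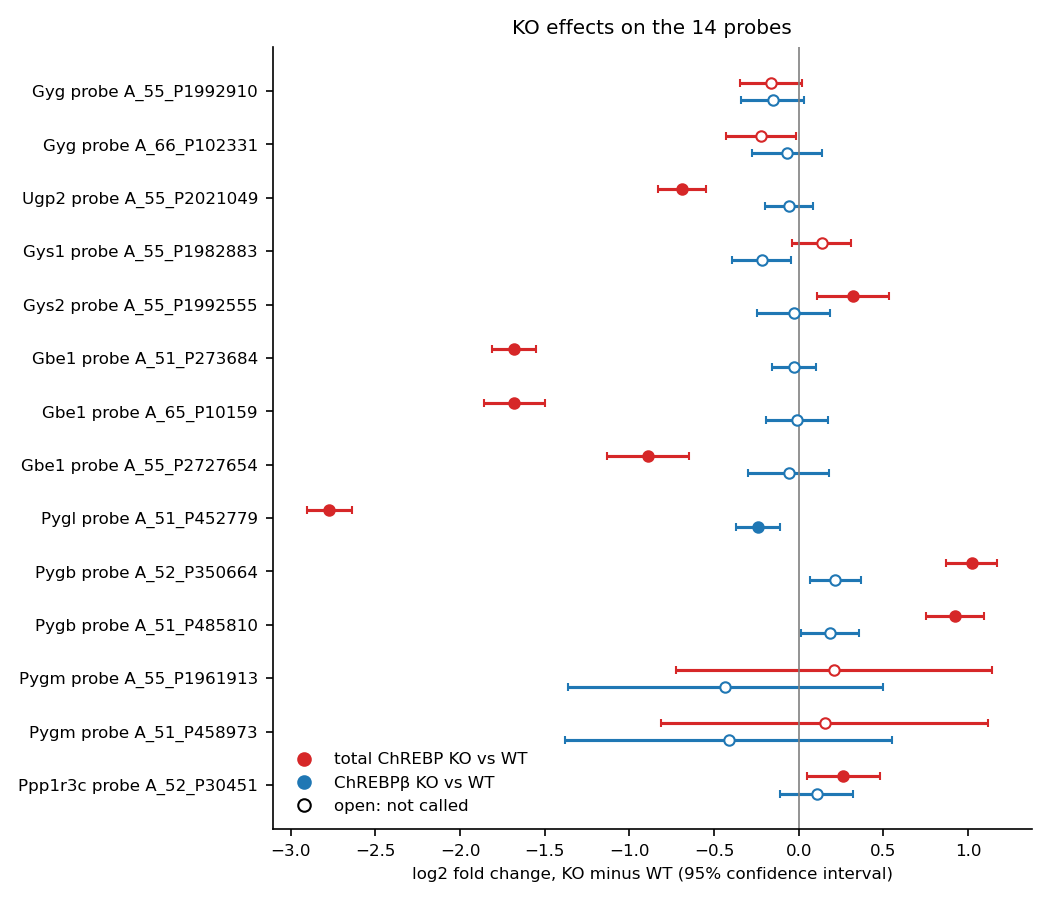
The log2 fold change of each of the 14 probes with its 95% confidence interval, red for total ChREBP KO and blue for ChREBPβ KO against WT of the same line; filled points were called. Pygl (-2.77) and Gbe1 (-1.68) lie farthest to the left and Pygb (1.02) farthest to the right in total ChREBP KO, and Pygl (-0.24) is the 1 filled blue point.

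The glycogen synthases changed little. Gys2, at chr6:142371157-142371216 on the minus strand (mm9), read 13.41, 13.92 and 14.29 in total-line WT and 14.06, 14.18 and 14.38 in total ChREBP KO. All 8 KO arrays were above the WT mean, but 6 lay inside the WT range. The log2 fold change was 0.32 ± 0.10 (SE; limma adjusted p 0.0131), and under the 75th percentile scalings of the processed signal and of the median intensity this was no longer called, with a log2 fold change as low as 0.19 (limma adjusted p up to 0.182). Gys1, at chr7:52711790-52711849 on the plus strand (mm9), ranged from 13.11 to 13.50 in total-line WT and from 13.31 to 13.53 in total ChREBP KO, and its change of 0.14 was not called (limma adjusted p 0.209). In ChREBPβ KO, Gys1 gave -0.22 (limma adjusted p 0.202) and Gys2 -0.03 (limma adjusted p 0.957). The Gys1 effects differed between the lines by -0.35 (limma adjusted p 0.0304), although neither effect was called alone, and the adjusted p of that difference ranged from 0.00973 to 0.0743 over the alternatives.

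Glycogenin was not called in either KO. The brighter Gyg probe, at chr3:20022033-20022092 on the minus strand (mm9), ranged from 13.46 to 14.18 in total-line WT and from 13.49 to 14.06 in total ChREBP KO, with a log2 fold change of -0.16 (limma adjusted p 0.147). The other probe gave -0.22 (limma adjusted p 0.0765). Both crossed the threshold under the 75th percentile scalings, at -0.28 (limma adjusted p 0.0115) and -0.27 (limma adjusted p 0.0304) when the median intensity was scaled. Without total-line WT replicate 8, the array with the lowest Pygm, both were also called lower. The dimmer probe was called lower as well with wash batch as a fixed block (-0.23; limma adjusted p 0.0354) and without total ChREBP KO replicate 4 (-0.27; limma adjusted p 0.0282). In ChREBPβ KO the probes gave -0.15 (limma adjusted p 0.493) and -0.07 (limma adjusted p 0.859).

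Ppp1r3c, the scaffold, is measured at chr19:36806457-36806516 on the minus strand (mm9). It read 12.41, 12.97 and 13.37 in total-line WT and 13.06, 13.20 and 13.35 in total ChREBP KO, so all 8 KO arrays were above the WT mean and all 8 within the WT range. The groups differed by 0.26 ± 0.11 on the log2 scale (SE; limma adjusted p 0.0447). The call was lost when any 1 of 10 of the 16 arrays of the line was left out and in 9 of 16 other settings, with adjusted p from 0.012 to 0.517. In ChREBPβ KO the change was 0.11 (limma adjusted p 0.76).

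The regions just before the transcription starts are shown for the genes whose groups separated in total ChREBP KO, Pygl, Gbe1, Ugp2 and Pygb, and for Ppp1r3c, which is shown because it alone held an E-box. The sequences are RefSeq's on GRCm38.p6, 250 bases ending at the base before the annotated start, written 5′ to 3′ on the strand of the gene, and 8 of the 9 genes had an entry, Ugp2 with a pair of starts. Capitals mark the E-box CACGTG and the CCAAT box (CCAAT, or ATTGG on the other strand). These are the windows chr12:70227684-70227933 (minus strand) for Pygl, chr16:70313699-70313948 (plus) for Gbe1, chr11:21371268-21371517 (minus) and chr11:21370630-21370879 (minus) for Ugp2, chr2:150786546-150786795 (plus) for Pygb and chr19:36736605-36736854 (minus) for Ppp1r3c.
Pygl: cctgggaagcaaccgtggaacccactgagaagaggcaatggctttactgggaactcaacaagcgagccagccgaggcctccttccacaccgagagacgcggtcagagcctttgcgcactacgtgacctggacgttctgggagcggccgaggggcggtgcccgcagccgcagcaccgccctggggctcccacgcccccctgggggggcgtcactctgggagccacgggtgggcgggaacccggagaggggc
Gbe1: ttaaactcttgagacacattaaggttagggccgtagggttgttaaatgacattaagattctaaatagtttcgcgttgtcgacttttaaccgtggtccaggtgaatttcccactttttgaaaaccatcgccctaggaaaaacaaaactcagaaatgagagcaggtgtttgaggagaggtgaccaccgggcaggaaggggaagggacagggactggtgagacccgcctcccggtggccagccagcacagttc
Ugp2, upstream start: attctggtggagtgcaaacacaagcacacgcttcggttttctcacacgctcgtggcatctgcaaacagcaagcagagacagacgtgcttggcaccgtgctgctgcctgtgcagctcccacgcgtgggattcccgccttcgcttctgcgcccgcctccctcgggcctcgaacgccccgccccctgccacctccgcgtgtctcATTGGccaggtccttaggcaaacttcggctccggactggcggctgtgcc
Ugp2, downstream start: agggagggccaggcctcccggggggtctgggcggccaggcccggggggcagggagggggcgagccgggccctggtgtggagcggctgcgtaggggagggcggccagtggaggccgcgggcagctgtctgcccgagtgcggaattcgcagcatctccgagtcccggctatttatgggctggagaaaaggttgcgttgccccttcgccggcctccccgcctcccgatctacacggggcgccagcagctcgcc
Pygb: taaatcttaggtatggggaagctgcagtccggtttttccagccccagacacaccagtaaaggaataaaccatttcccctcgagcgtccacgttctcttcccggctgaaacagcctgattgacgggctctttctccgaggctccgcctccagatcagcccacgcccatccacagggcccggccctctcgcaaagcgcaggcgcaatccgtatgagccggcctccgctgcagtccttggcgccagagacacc
Ppp1r3c: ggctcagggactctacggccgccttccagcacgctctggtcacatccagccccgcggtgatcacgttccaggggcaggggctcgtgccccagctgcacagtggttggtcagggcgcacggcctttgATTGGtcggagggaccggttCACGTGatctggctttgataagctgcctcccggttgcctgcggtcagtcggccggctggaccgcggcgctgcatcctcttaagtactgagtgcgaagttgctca

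CACGTG was in 1 of the 9 windows of these genes, that of Ppp1r3c at 104 bases before the start, and in 6.02% of 32851 promoter windows of the same length. CCAAT or ATTGG was in 3 of 9, of Gys1, Ppp1r3c and the upstream start of Ugp2, and in 33.8% of all. TATAAA, searched on both strands, was in 0 of 9 and in 12.4% of all. ChREBP is known to bind the carbohydrate response element, a pair of E-box-like motifs with a spacer. A strict consensus pattern for it was in 0 of 9 and in 9 of all windows (0.0274%). Other forms of the element were not searched. At so low a rate, 0 of 9 is likely for any genes, so this search cannot separate these genes from others. Whether their windows hold a site for ChREBP was not tested. For every motif, a missing match says only that the pattern searched is not in this window.

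The skeletal muscle markers moved with part of the set and are given here with it. The mean log2 value of 12 muscle markers, such as Acta1 and Ckm, was between 12.71 and 16.06 in total-line WT, 14.19 and 15.72 in total ChREBP KO, 5.53 and 11.86 in ChREBPβ-line WT and 5.55 and 11.25 in ChREBPβ KO, and each of the 12 was well above background on at least 1 array of every group. Between KO and WT of either line, 0 of 12 were called by limma and 0 of 12 had an unadjusted p under 0.05, while 12 of 12 were lower in ChREBPβ-line WT than in total-line WT, with a median log2 fold change of -6.39. Of 12 liver markers, 1 was lower in total ChREBP KO, against 21.1% of all genes, and 0 were called in ChREBPβ KO (0 at an unadjusted p under 0.05). The mean of the liver markers exceeded 10 on 4 arrays of each ChREBPβ-line group and 1 of total-line WT. Without those 9 arrays, Pygl in total ChREBP KO was at -2.77 and Gbe1 at -1.70. Only 1 of the 9 enters that comparison, so these values could hardly move and say little about liver RNA. In ChREBPβ KO, where 4 arrays of each group drop out, Pygl was no longer called. The part of liver RNA in the values was not tested. All 8 brown adipocyte markers, Ucp1 among them, were well above background on every array. Their mean lay between 14.43 and 15.49, and in total ChREBP KO 4 were called higher and 2 lower, against 23% and 21.1% of all genes. In ChREBPβ KO 0 of the 8 were called, and 4 had an unadjusted p under 0.05, a level for which the share of all genes is not given here. Of the blood, lymphocyte and white adipocyte lists, 0 of 4, 1 of 5 and 1 of 4 measured markers were called in total ChREBP KO, against 44.1% of all genes. In ChREBPβ KO 0 were called, against 2.7% of all genes, and 0, 0 and 1 had an unadjusted p under 0.05.

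How far the starting point differed was read from WT against WT. Of the 14 probes, 6 were called, where 39.2% of all probes were called, with 1 higher and 5 lower in the ChREBPβ line, against 24.2% and 15% of all probes. By brightest probe these were 4 of 9 genes, against 38.9% of all genes. Pygm read 7.47, 7.94 and 10.14 in ChREBPβ-line WT against the 10.42 to 14.20 of total-line WT, a log2 difference of -4.21 ± 0.46 (SE; limma adjusted p 1.26e-08) and -4.35 on the other probe. Ppp1r3c ranged from 11.81 to 12.37, all below the total-line WT arrays, with a difference of -0.87 (limma adjusted p 1.09e-07). The Gyg probes differed by -0.33 (limma adjusted p 0.00385) and -0.53 (limma adjusted p 9.82e-05), and Gys2 was higher by 0.41 (limma adjusted p 0.0024). Pygl, Gbe1, Ugp2, Pygb and Gys1 were not called.

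With the muscle marker mean of each array as a covariate, the Pygm difference between the WT groups was -1.33 (limma adjusted p 0.0219) and that of Ppp1r3c -0.67 (limma adjusted p 0.00857), while Gyg and Gys2 were no longer called. The muscle means of the WT groups did not overlap, at 12.71 to 16.06 in the total line and 5.53 to 11.86 in the ChREBPβ line. Line and muscle mean are thus confounded, and the adjusted differences rest on a straight line drawn across that gap. With that covariate the Gyg probes differed by -0.23 (limma adjusted p 0.347) and -0.44 (limma adjusted p 0.0763), and Gys2 by 0.23 (limma adjusted p 0.418), with SEs of 0.15, 0.17 and 0.17 where they had been 0.09, 0.10 and 0.10 without it. After group means were removed, Pygm correlated with the muscle mean at r = 0.99 over the 16 arrays of the total line and r = 0.92 over the 16 of the ChREBPβ line, arrays that share line, protocol and platform. Total-line WT replicate 8 had both the lowest Pygm and the lowest muscle mean of its group. For Ppp1r3c the same correlations were 0.91 and 0.09, and for the brighter Gyg probe 0.67 and 0.02. For Gys2 they were negative, at -0.42 and -0.22. The brightest probes of the other genes gave 0.57 and -0.27 (Gys1), 0.50 and -0.11 (Ugp2), -0.58 and -0.002 (Gbe1) and 0.0003 and 0.46 (Pygb). For Pygl they were -0.17 and -0.09 with the muscle mean and -0.10 and -0.70 with the liver mean. Gbe1 gave -0.14 and -0.60 with the liver mean. The part of muscle RNA in the values of Pygm, Ppp1r3c, Gyg, Gys2 and the other genes of the set was not tested.

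**Figure D3:**
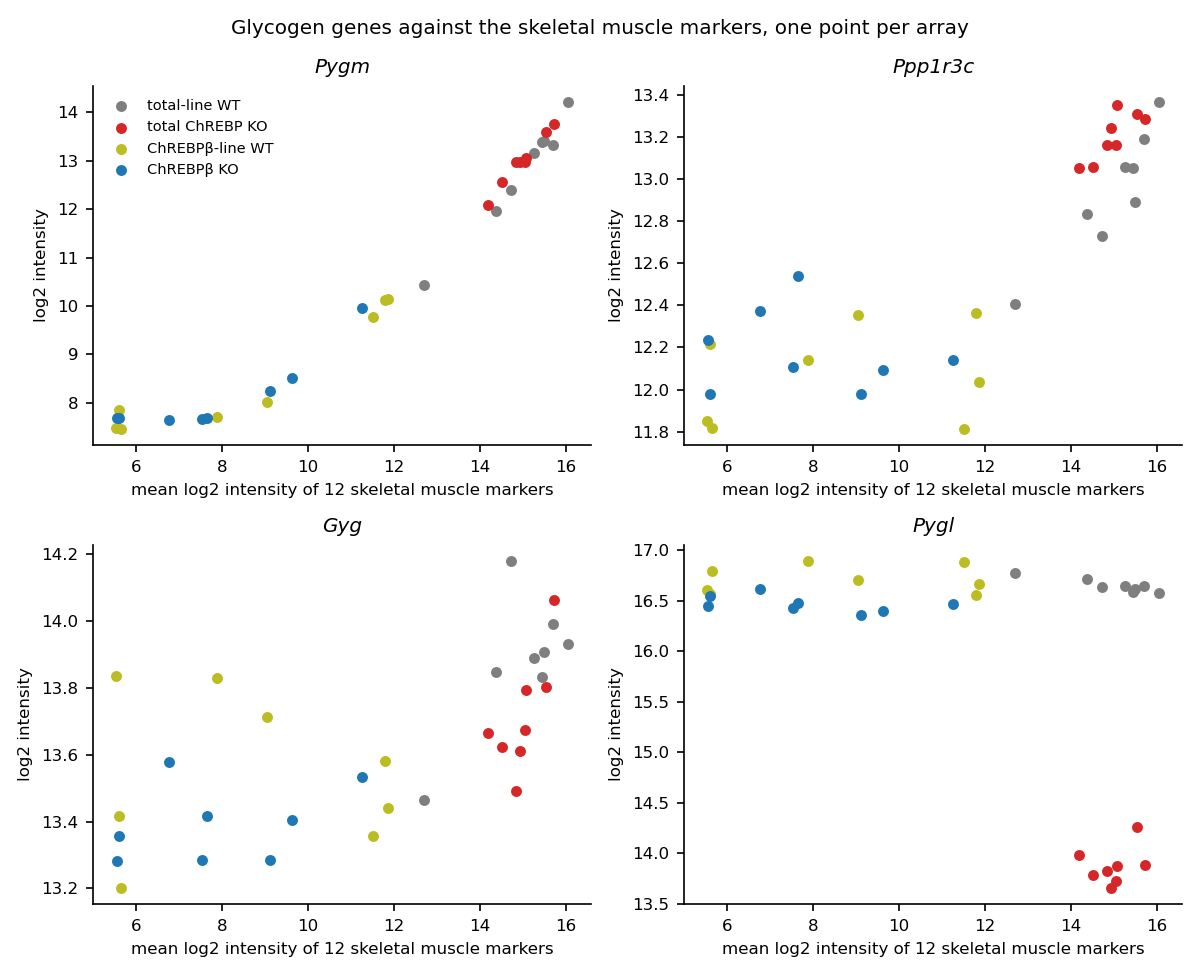
Log2 intensity of 4 genes on each array against the mean of 12 skeletal muscle markers, both on the log2 scale, coloured by group. Pygm rises with the muscle mean, with total-line WT replicate 8 (10.42) at the low end of its line. Pygl lies between 13.66 and 14.26 in total ChREBP KO. The muscle means are 14.19 to 15.72 in that group and 12.71 to 16.06 in total-line WT. The part of muscle RNA in the Pygl values was not tested.

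By correlation of the brightest probes over all 32 arrays, the genes most like Pygl were Acaca, which encodes acetyl-CoA carboxylase (r = 0.99), Acot11 and Sorcs2. Those most like Gbe1 were Pygl (r = 0.98), Sorcs2 and the fructose transporter gene Slc2a5. Most of this likeness lay in the gap of the total ChREBP KO arrays. With group means removed, Pygl correlated at 0.51 with Acaca, 0.43 with Acot11 and -0.11 with Sorcs2. Gbe1 then correlated at 0.34 with Pygl, 0.14 with Sorcs2 and 0.39 with Slc2a5. Ugp2 was nearest to Acly (r = 0.92), Prpf19 and Plin2, and Pygb to Cdip1 (r = 0.97), Uhrf1 and Arsb. Pygm was nearest to Atp2a1, the calcium pump of fast muscle (r = 1.00, and 0.99 within groups), Dhrs7c and Klhl31, and Cnnm4 and Pdlim1 (r = 0.94 each) were among the nearest to Ppp1r3c. Gyg was nearest to Gng5 (r = 0.87), Gaa and Ppp3r1, Gys1 to D17Wsu92e (r = 0.86), Coq10a and Eif1ad, and Gys2 to Aldh5a1 (r = 0.84), Pcbd2 and Pigq. All these r were computed over arrays that share the 4 groups and are descriptions only.

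Further genes of the pathway were taken from a list of 31, of which 30 had a probe that passed the filter and G6pc had none. In total ChREBP KO, 19 of 30 were called by their brightest probe, 7 higher and 12 lower, against 44.1% of all genes, with a median log2 fold change of -0.18 over the 30 genes and 0.01 over all. In ChREBPβ KO, 1 of 30 was called, and it was lower, where 2.7% of all genes were called, 1.37% higher and 1.33% lower.

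Of the genes that interconvert glucose and its phosphates, 5 of 10 were called in total ChREBP KO, close to the 44.1% of all genes, with 1 higher and 4 lower against 23% and 21.1%. Hexokinase 2 (Hk2), which traps glucose in the cell, read between 14.89 and 15.15 in total-line WT and between 12.74 and 13.22 in total ChREBP KO, a log2 fold change of -1.95 (limma adjusted p 5.24e-21). Slc37a4, the glucose 6-phosphate transporter of the endoplasmic reticulum, fell by 1.70 on the log2 scale (limma adjusted p 7.37e-15), by 0.83 on its other probe, and Hk3 by 0.52. G6pc3, a glucose 6-phosphatase of most tissues, rose by 0.41. Gaa, which breaks glycogen down in the lysosome, fell by 0.22 on the log2 scale, a call that was lost with slide as a fixed block (limma adjusted p 0.122). The other Gaa probes gave -0.26, called, and 0.03, not called (limma adjusted p 0.863).

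Of the genes for phosphatase targeting, 7 of 9 were called in total ChREBP KO, against 44.1% of all genes, with 2 higher and 5 lower against 23% and 21.1%. Ppp1r3g, a scaffold of the Ppp1r3c family, rose most, from arrays between 4.61 and 5.33 in total-line WT, of which 5 of 8 were well above background, to between 6.17 and 7.92 in total ChREBP KO. The log2 fold change was 2.22 (limma adjusted p 5.11e-11); its size moved with the processing, from 1.40 with normexp and quantile normalization to 3.59 with the processed signal and 75th percentile scaling. The liver scaffold Ppp1r3b fell by 0.59, the catalytic subunit Ppp1ca fell by 0.63, and Ppp1r3e rose by 0.29. The other Ppp1ca probe gave -0.69 and was called, and the other Ppp1r3e probe gave 0.13 and was not (limma adjusted p 0.175). Of 5 phosphorylase kinase genes, which encode the enzyme that switches phosphorylase on, Phkg2 rose by 0.45, Phka2 rose by 0.39, and 1 was lower, so that 3 of 5 were called against 44.1% of all genes. The other Phkg2 probe gave 0.17 and was not called (limma adjusted p 0.0664). The other Phka2 probes gave 0.35, 0.26 and -0.10, the last of them not called (limma adjusted p 0.706). Of the 5 genes of the synthase kinase and laforin group, 2 were higher and 1 lower, against 23% and 21.1% of all genes: Stbd1, a protein that tethers glycogen to membranes, rose by 1.45 (limma adjusted p 3.33e-09), with arrays from 10.56 to 11.68 against 9.46 to 10.05 in WT, and the synthase kinase gene Gsk3b fell by 0.50. The other Stbd1 probes gave 1.44 and 0.54, both called, so they shared the direction but not the size.

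The 1 gene of the list called in ChREBPβ KO was Gsk3b. Its brightest probe ranged from 12.52 to 13.11 in ChREBPβ-line WT and from 12.03 to 12.66 in KO, so that the groups overlapped at 1 KO array. KO minus WT was -0.45 ± 0.08 on the log2 scale (SE; limma adjusted p 0.00126), and its 3 other probes gave -0.23, -0.39 and -0.49, the last of them called. With slide as a fixed block the gene was not called (limma adjusted p 0.101). In total ChREBP KO the 3 other probes gave -0.43, -0.14 and -1.37, of which the first and the last were called. For the brightest probe the KO effects differed by 0.05 (limma adjusted p 0.805), whereas for the other probe called in both KO comparisons they differed by 0.88 (limma adjusted p 3.8e-06), so the probes did not share this result.

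**Figure D4:**
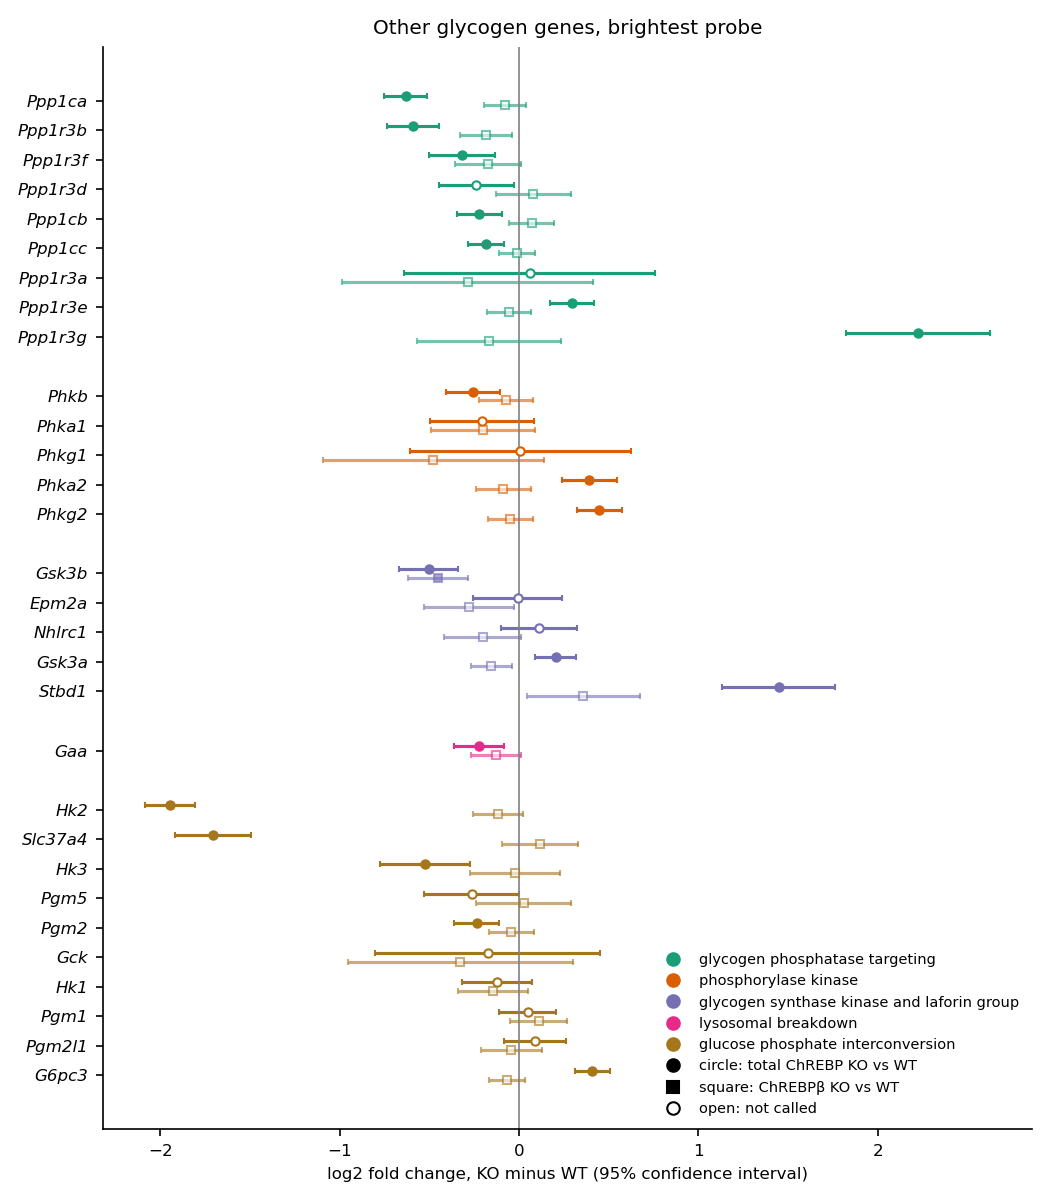
The log2 fold change with its 95% confidence interval for 30 other glycogen genes, brightest probe, circles for total ChREBP KO and squares for ChREBPβ KO against WT, coloured by list; filled symbols were called. Hk2 (-1.95) and Slc37a4 (-1.70) lie to the left and Ppp1r3g (2.22) and Stbd1 (1.45) to the right in total ChREBP KO, and Gsk3b (-0.45) is the 1 filled square.

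The difference of the effects, ChREBPβ KO minus total ChREBP KO, was called for 8 of the 14 probes, where 24.1% of all probes were called: 1 of Pygl, 3 of Gbe1, 1 of Ugp2, 2 of Pygb and 1 of Gys1. These were 5 of 9 genes by brightest probe, against 25.2% of all genes. In every one of them the total ChREBP KO effect was the larger in size, except in Gys1, where the effects were 0.14 and -0.22. For Gys2 the difference was -0.35 (limma adjusted p 0.0841), which was called with the replicate block (limma adjusted p 0.038) and without total-line WT replicate 2 (limma adjusted p 0.0362). It was 0.01 for the brighter Gyg probe, -0.64 for Pygm and -0.16 for Ppp1r3c, with none of these 3 called.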

How the data were processed

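RNA of brown fat was measured on 32 Agilent 1-colour arrays, 8 in a group, which the labels list as separate samples; the study counts them as mice. The authors deposited the median spot intensity from Agilent Feature Extraction (10.10.1.1, per the submitters' processing notes), with no normalization between arrays, and a table of log2 values that the authors had filtered and quantile normalized. Their steps were repeated from the intensities. Spots that were found, positive and above background by the scanner's flag in 26 or more arrays, or in 6 or more of 1 group, were kept (39985 of 59305). After quantile normalization, log2 and the median over spots of a probe, 37306 probes with 24523 names remained, and the mean absolute difference from the deposited log2 values was 0.0113. Between 64.4% and 71.1% of spots per array were well above background and 0 were saturated. Precision is limited by the number of arrays. Probe names and positions (mm9) are those of the array files.

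Group means were fitted for each probe with limma 3.58.1 (R 4.3.3, lmFit, eBayes), all 32 arrays together, without covariates. Tests were two-sided and adjusted by Benjamini-Hochberg over all probes. A gene stood by its brightest probe. All members are named, and other pathway genes where called in a KO comparison, at most the 6 highest and 6 lowest, with Gaa added after its values were seen. Results for some genes are not reported here. The members, lists, markers and rules were chosen with earlier results of these data known. The fit was tested on simulated data. Same-numbered KO and WT arrays correlated between -0.30 and 0.08 in the total line and between -0.20 and 0.53 in the ChREBPβ line, where 6 of 8 pairs exceeded 0.1. The labels do not name the numbers as pairs. They were left out of the main fit, and a block for the replicate number was run as an alternative. Alternatives changed the normalization, background correction, filter, blocks (wash batch, slide, replicate number), array weights, groups in the fit and covariates (muscle and liver marker means), or left out an array. Leaving out the arrays with a liver mean above 10, or those of the ChREBPβ line with a muscle mean above 10, was chosen after seeing the data.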

Additional observations from a re-analysis of the deposited data

Results flagged for a closer look

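In 56 tests of 1 probe in 1 group for an array that stands apart by Dixon's ratio, 5 were positive, where chance gives about 1 in 20. ChREBPβ-line WT replicate 5 was high on both Pygb probes, at 9.37 with the next array at 9.11 and at 7.68 with the next at 7.33. ChREBPβ KO replicate 6 was high on both Pygm probes, at 9.96 against 8.5 and at 8.6 against 7.25. Replicate 4 of total ChREBP KO was high on the Ugp2 probe, at 12.95 against 12.59. Each pair of probes reads the same array and is not independent.

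The test of the difference itself (limma, ChREBPβ KO effect minus total ChREBP KO effect) was positive for 8 probes. The differences were 2.53 for Pygl (adjusted p 3.87e-20), 1.66, 1.67 and 0.83 for the Gbe1 probes (2.41e-15, 7.85e-12 and 0.000339), 0.63 for Ugp2 (1.1e-05), -0.8 and -0.74 for the Pygb probes (6.55e-07 and 1.68e-05) and -0.35 for Gys1 (0.0304).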

How the results depend on the processing

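In total ChREBP KO, the calls of Pygl, Gbe1, Ugp2 and Pygb held in every alternative in which the probe was tested, and the number of called probes lay between 8 and 10 (main 9), also between 8 and 10 when each array was left out. By brightest probe the genes numbered 5 to 6, and the other pathway genes 15 to 20 (main 19), or 19 to 21 with each array left out. Over all 37306 probes, 16133 were called in total ChREBP KO in the main fit. In the alternatives that kept all these probes and arrays, this lay between 12245 (slide as a fixed block) and 17257 (array weights).

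In ChREBPβ KO, the count of called probes fell from 1 to 0, and of genes from 1 to 0, with 75th percentile scaling of the processed signal and of the median intensity, with no filter on dim probes, with a fixed block for the wash batch or for the slide, with only the groups of the line in the fit, without the arrays with a liver mean above 10 and without the ChREBPβ-line arrays with a muscle mean above 10. Over all 37306 probes, 953 were called in the main fit, 856 and 906 with the scalings of the processed signal and the median intensity, and 800 with the wash batch block. The slide block left 143, and the fit with only the groups of the line 476. With no filter on dim probes it was 788 of 56605. With each array left out, the counts of member probes and of member genes both ranged from 0 to 2, the highest without ChREBPβ-line WT replicate 5. The count of other pathway genes, 1, became 0 with a fixed block for the slide and 2 with 75th percentile scaling of the median intensity, and was 1 to 2 with each array left out, the highest without ChREBPβ-line WT replicate 5.

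Between the KO effects the probes numbered 7 to 9 in both kinds of alternative, the genes 4 to 6 and the other pathway genes 10 to 15. Between the WT groups, 3 probes (main 6), 2 genes (main 4) and 6 other pathway genes (main 16) were called with the muscle mean as a covariate, and 7 of the other genes with the muscle and liver means. The drop was not particular to these genes. Over all 37306 probes, calls between the WT groups fell from 14627 to 5058 with the muscle mean and to 5250 with both means. With each array left out the member probes and genes stayed at 6 and 4, and the other genes lay between 16 and 18.

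The replicate numbers are not a pairing known from the labels. With the replicate block, 8 member probes were called in total ChREBP KO and 0 in ChREBPβ KO, where 16429 and 1060 of all 37306 probes were called. In each line, 0 of 8 arrays correlated best with their own number. Of the members' calls in the KO comparisons, those of Pygl in ChREBPβ KO and Ppp1r3c in total ChREBP KO were lost. The difference of the KO effects on Gys2 became a call.

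Of 2016 refits of single member probes, none turned a called direction, and 64 crossed the threshold. The difference between the KO effects needs all 4 groups and was not refitted with fewer. Why a call was lost was not tested. The spread between arrays limits what can be detected, most of all for Pygm.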
